A study of Mus musculus with 24 samples.

Results

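The genes described here are 10 components of 2 receptor systems of the vascular endothelium, the VEGF system and the angiopoietin-Tie system, measured as mRNA in mouse brain microvessels after stroke. They are the VEGF ligands Vegfa and Pgf, their receptors Flt1, Kdr and Flt4, the co-receptor Nrp1, the angiopoietins Angpt1 and Angpt2, the angiopoietin receptor Tek and the related receptor Tie1. They were chosen by name for their place in the pathway, and all 10 of them were found among the 17270 genes of the normalized table and among the 15982 tested genes, those that averaged more than 5 normalized counts.

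In these systems, VEGF-A made by the cells around a vessel binds the endothelial receptor VEGFR2 (Kdr), which drives growth, migration and permeability of endothelial cells, while VEGFR1 (Flt1) binds VEGF-A and placental growth factor (Pgf) tightly, signals weakly and in its soluble form traps the ligand. Angiopoietin 1, a product of mural cells, activates the receptor Tie2 (Tek) and keeps vessels quiescent, whereas angiopoietin 2, which endothelial cells store and release, mostly competes with it and loosens the vessel wall. Both systems are known for their part in the leakage of the blood-brain barrier and in vessel growth after ischemia.

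Male C57BL/6J mice of 10 to 12 weeks underwent transient middle cerebral artery occlusion (tMCAO) for 60 min or a sham operation, in which the filament was advanced and withdrawn at once, and all received post-operative care with warming, fluid and feeding. After 24 h or 7 days, brain microvessel fragments were isolated from homogenised tissue of the occluded (ipsilateral) and the opposite (contralateral) hemisphere. Surgery, hemisphere and time point form 8 groups with 3 libraries each, and each library held the pooled hemispheres of 3 animals, so that 9 animals stood behind a group. Libraries are numbered 1 to 3 as in the labels, and the study had removed libraries it judged to be outliers before deposit.

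Microvessel fragments are a mixture and not a purified cell type. Endothelial markers were strong in every group, with sums over 10 markers between 132412 and 206929 normalized counts, and none of the 10 was at 0 in all libraries of a group. The same held for markers of pericytes, astrocytes, neurons and choroid plexus. A value below is a normalized count, the reads of a gene divided by the size factor of the library. Genes count here as regulated (called) if they differ by more than 1.5-fold, the fold limit, with an adjusted p under 0.05 from limma (Benjamini-Hochberg, over all tested genes). Totals were 15924780 to 18787932 normalized counts per library, with an estimated 13691467 to 20033951 reads behind them. Library 1 of the contralateral hemispheres 7 days after tMCAO stood apart with a sum of 16179 normalized counts over 8 neuronal markers, against 5313 and 6586 in the other libraries of its group. A lower value in such bulk libraries can stem from fewer cells of a type or from less RNA per cell, which cannot be told apart.

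By their mean over all libraries, the receptors Flt1, Tek, Tie1 and Kdr were more abundant per length than the ligands, but in the ipsilateral libraries 24 h after tMCAO the mean of Angpt2 (2437 normalized counts per kilobase) was above those of Tie1 (2071), Tek (1728) and Kdr (935). Library 3 of that group held 4537 normalized counts of Angpt2, against 11478 and 10959 in libraries 1 and 2. In library 3, Angpt2 was below Tie1 and Tek per kilobase. Per kilobase of exon, Flt1 had the highest mean over the 24 libraries with 4587 normalized counts, and by its mean normalized count it ranked 9 among all tested genes. Tek followed with 2534 and Tie1 with 2244 normalized counts per kilobase, and these 3 mark the endothelial fraction strongly. Kdr reached 966, Flt4 445 and Nrp1 294 on the same scale. Among the ligands, Angpt2 was the most abundant with 845 normalized counts per kilobase, followed by Pgf with 197, Angpt1 with 74.7 and Vegfa with 40.8. Angpt2 varied most between libraries, with its highest library 16.2-fold above its lowest, whereas the 6 genes Flt1, Kdr, Flt4, Nrp1, Tek and Tie1 varied no more than 2.63-fold. Between the 8 group means, the span on the log2 scale was 2.59 for Angpt2, 1.49 for Pgf and 1.47 for Vegfa, and below 1 for the other 7 genes.

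**Figure D1:**
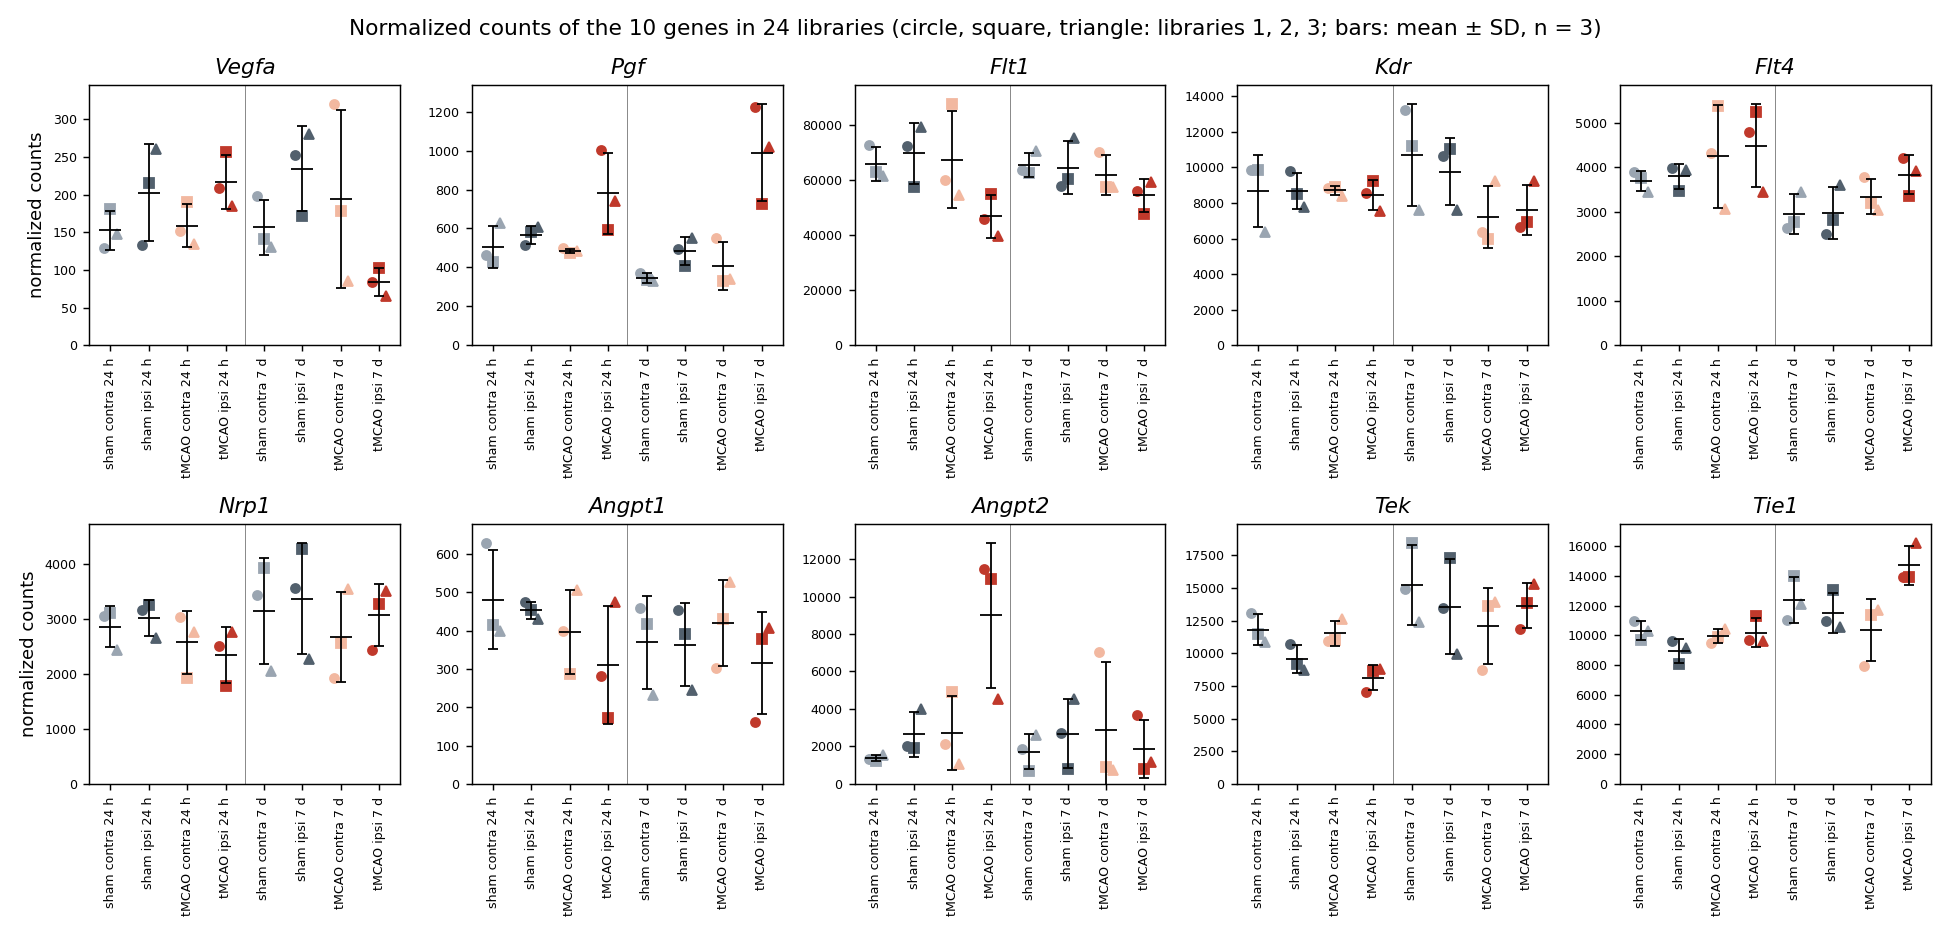
Normalized counts (vertical axes, from 0, with 1 scale per gene) of the 10 genes in the 8 groups, ordered by time point (contra, contralateral; ipsi, ipsilateral). Symbols are libraries and bars the mean ± SD of 3 libraries. The ipsilateral libraries 24 h after tMCAO are the highest of all groups by their mean for Angpt2 (8991 ± 3866) and those at 7 days are the highest for Pgf (990 ± 249) and the lowest for Vegfa (83.7 ± 18.5).

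The sequences upstream of 3 of these genes were read for short letter matches: Flt1, the most abundant receptor, Tek, the receptor with the largest span between its group means (0.89 on the log2 scale), and Vegfa, the ligand with the lowest level. Each is the run of 250 bases before the transcription start of the RefSeq entry in GRCm38.p6, printed 5′ to 3′ in the direction of the gene, and none overlaps an annotated exon. Capitals mark the letters GGAAG on either strand (CTTCC on the opposite one). These letters contain GGAA, the core that ETS factors of endothelial cells recognise. GGAA followed by another letter was neither marked nor counted.
Flt1 (chr5:147726012-147726261, minus strand): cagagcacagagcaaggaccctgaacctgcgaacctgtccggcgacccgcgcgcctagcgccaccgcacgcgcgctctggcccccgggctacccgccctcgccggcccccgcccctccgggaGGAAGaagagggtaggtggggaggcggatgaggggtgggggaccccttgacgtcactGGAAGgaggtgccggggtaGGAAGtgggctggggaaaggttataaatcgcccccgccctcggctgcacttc
Tek (chr4:94739039-94739288, plus strand): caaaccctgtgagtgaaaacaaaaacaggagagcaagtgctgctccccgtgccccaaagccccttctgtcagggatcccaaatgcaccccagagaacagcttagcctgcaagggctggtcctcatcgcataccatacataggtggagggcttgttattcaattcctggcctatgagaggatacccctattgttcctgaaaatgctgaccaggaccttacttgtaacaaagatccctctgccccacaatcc
Vegfa (chr17:46032378-46032627, minus strand): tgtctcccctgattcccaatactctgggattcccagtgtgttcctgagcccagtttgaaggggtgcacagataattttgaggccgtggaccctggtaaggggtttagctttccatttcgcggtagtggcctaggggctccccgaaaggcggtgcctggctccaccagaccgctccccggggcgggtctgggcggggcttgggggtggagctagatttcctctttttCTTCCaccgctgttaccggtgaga
The Flt1 window held GGAAG 3 times, that of Vegfa 1 time and that of Tek 0 times. Of all 32851 promoter windows of this length, 64.1% held it at least 1 time. ACGTG, 1 form of the core of the hypoxia response element, was read on both strands. It was in none of the 3 windows and in 16.6% of all. A second RefSeq window of Vegfa (chr17:46025164-46025413, minus strand), not printed as 218 of its 250 bases are annotated as exon, held ACGTG 1 time. Other forms of that core were not searched, so the windows may hold them. Such matches describe letters in a window and not bound sites. They do not show which start gave the counts, and bases outside the windows were not read.

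Pgf (ENSMUSG00000004791, chromosome 12, 85166635 to 85177790, minus strand, mm10) encodes placental growth factor, a ligand of VEGFR1. It rose in the ipsilateral hemisphere after tMCAO. At 7 days the ipsilateral libraries held 1223, 727 and 1019 normalized counts after tMCAO and 494, 409 and 552 after sham surgery. The lowest tMCAO library was above the highest sham library. The log2 fold change was 1.01 (SE 0.21, limma, adjusted p = 0.00218), a 2.01-fold rise. The opposite hemisphere of the tMCAO animals had 550, 329 and 340, which were all below the ipsilateral values, and the log2 difference between the hemispheres was 1.29 (SE 0.21, limma, adjusted p = 0.000164). Here all 3 same-numbered ipsilateral libraries exceeded their contralateral counterparts, by 2.21 to 3.0-fold. In the sham animals at 7 days all 3 pairs leaned the same way, by 1.22 to 1.68-fold and without overlap. That log2 difference of 0.48 (SE 0.21, limma, unadjusted p = 0.0346) did not pass after adjustment.

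At 24 h, ipsilateral Pgf stood at 1006, 593 and 742 normalized counts after tMCAO and at 515, 580 and 607 after sham surgery. These groups overlapped, and the log2 fold change of 0.43 (SE 0.21, limma, adjusted p = 0.130) did not pass and came to -0.01 when libraries were centred on the endothelial markers. Against the contralateral hemisphere with 498, 475 and 483 normalized counts, ipsilateral Pgf was higher by 0.65 on the log2 scale (SE 0.21, limma, adjusted p = 0.0300) with no overlap. This call was lost when libraries were centred on the endothelial markers (0.37, adjusted p = 0.197) or on their median (0.57, under the fold limit). It was also lost without contralateral library 1, 2 or 3 or ipsilateral library 1 or 3, with values of 0.45 to 0.67 and adjusted p of 0.0506 to 0.177, and was 0.83 without ipsilateral library 2. The sham groups lay lower at 7 days, with a contralateral range of 328 to 373 normalized counts against 426 to 627 at 24 h, a log2 difference of -0.53 that did not pass (limma, adjusted p = 0.358).

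The difference between the stroke effects on Pgf at the 2 time points, 0.58 on the log2 scale (SE 0.30, limma, adjusted p = 0.227), did not pass either. At 7 days, 3 of 3 tested proliferation markers were higher after tMCAO than after sham surgery in the ipsilateral hemisphere, with sums of 245 to 287 against 46 to 57 normalized counts. Between the hemispheres after tMCAO at 7 days, 3 of 5 macrophage markers were higher on the ipsilateral side, with sums of 3796 to 7097 against 2955 to 3270 normalized counts. Against sham, 0 of these 5 were higher and 2 were lower (Ms4a7 and Mrc1), with sums of 4169 to 6104 after sham surgery. Their part in the values of Pgf was not tested.

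Vegfa (ENSMUSG00000023951, chromosome 17, 46016993 to 46032369, minus strand), the main ligand of VEGFR2, fell at 7 days. Its ipsilateral libraries had 84, 102 and 65 normalized counts after tMCAO and 252, 171 and 280 after sham surgery, with no overlap. The log2 fold change was -1.47 (SE 0.34, 95% interval -2.19 to -0.75, limma, adjusted p = 0.00526), to 0.362 of the sham level. This held in each of the 6 fits that left out 1 library (-1.68 to -1.30). At 24 h the ipsilateral values were 209, 256 and 185 after tMCAO and 133, 215 and 260 after sham surgery. The groups overlapped at that time, with a log2 fold change of 0.14 (SE 0.34, limma, adjusted p = 0.789).

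The stroke effect on Vegfa differed between the time points by -1.60 on the log2 scale (SE 0.49, limma, adjusted p = 0.0412). That call was lost with centring on the endothelial markers (-1.55, adjusted p = 0.0615) and without any 1 of 8 of the 12 libraries. These were ipsilateral libraries 1 and 2 of both 24 h groups and libraries 1 and 3 of both 7 day groups, with values of -1.67 to -1.33 and adjusted p of 0.0536 to 0.124. Within the tMCAO animals, ipsilateral Vegfa was lower at 7 days than at 24 h by -1.37 (SE 0.34, limma, adjusted p = 0.00902), again without overlap and in each fit that left out 1 library.

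The contralateral hemispheres of the tMCAO animals were less uniform. At 7 days they held 320, 178 and 85 normalized counts of Vegfa, a spread of 194 ± 118 (SD, n = 3) that overlapped with the ipsilateral libraries. The log2 difference was -1.03 (SE 0.34, limma, adjusted p = 0.0457). Without contralateral library 1, which stood apart in its neuronal and astrocyte markers, it was -0.57 (adjusted p = 0.305), and without contralateral library 2 or ipsilateral library 1 or 3 it was -1.0, -1.05 and -0.86 (adjusted p = 0.102, 0.107 and 0.155). With only these 2 groups in the fit the adjusted p was 0.239. With the library number as a block, which treats same-numbered hemispheres as pairs, the difference was -1.03 (SE 0.25, limma, adjusted p = 0.00818). All 3 same-numbered ipsilateral libraries were lower than their contralateral partners at 7 days (ratios 0.26 to 0.76), while at 24 h all 3 were higher (1.35 to 1.38). In the sham animals, ipsilateral Vegfa was higher in all 3 same-numbered pairs at both times, with ratios of 1.03 to 2.15, and neither sham difference between hemispheres passed in limma.

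**Figure D2:**
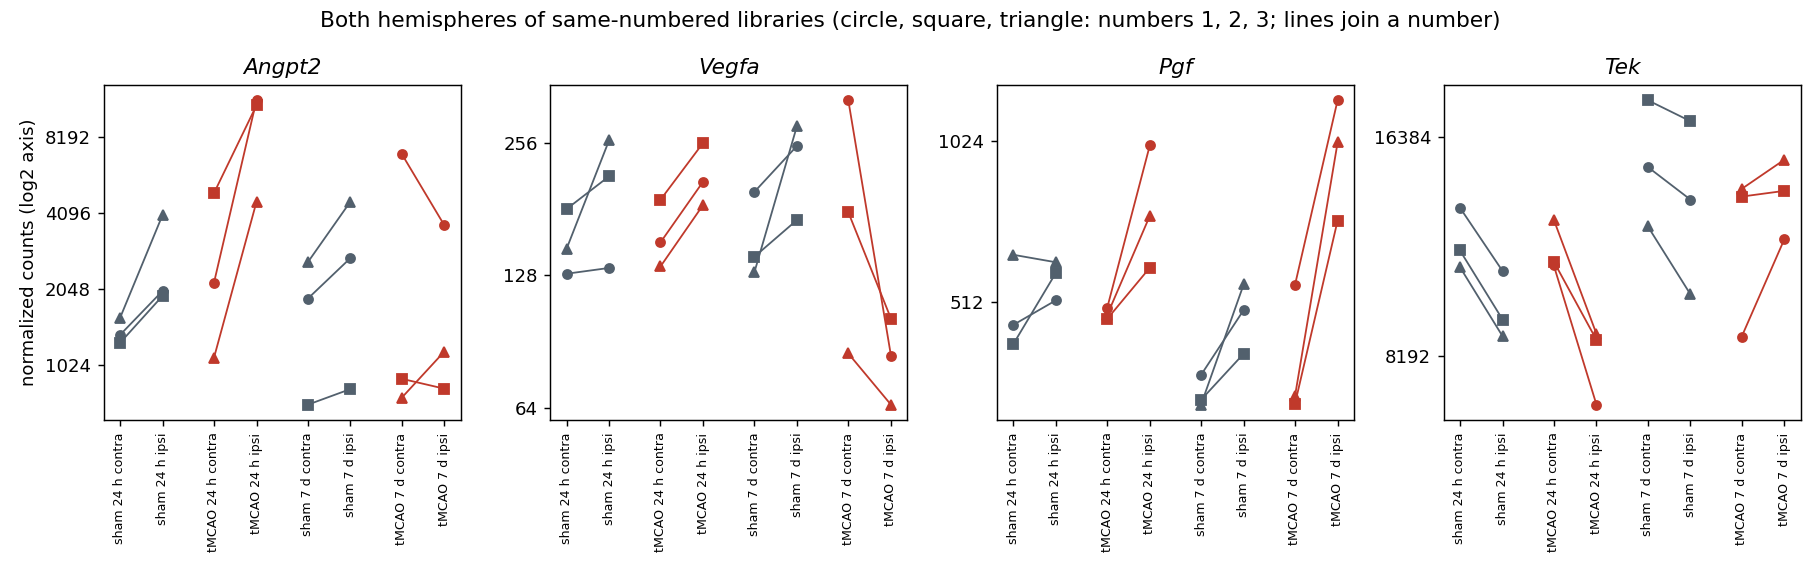
Normalized counts (vertical axes on a log2 scale) of 4 genes in both hemispheres, with lines joining libraries of the same number (contra, contralateral; ipsi, ipsilateral; grey, sham; red, tMCAO). Vegfa falls towards the ipsilateral side in all 3 pairs 7 days after tMCAO and rises in all 3 pairs of the other surgeries and times. Angpt2 rises in all 3 pairs at 24 h after tMCAO (2.24 to 5.33-fold). It also rises in all 3 sham pairs at 24 h (1.5 to 2.57-fold) and at 7 days (1.15 to 1.74-fold), and in 1 of 3 pairs 7 days after tMCAO.

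Several markers of other cell types were also lower at 7 days. In the ipsilateral hemisphere at 7 days, 4 of 6 choroid plexus markers (Folr1, Prlr, Otx2 and Ttr) were lower after tMCAO, with sums of 671 to 3132 normalized counts against 15840 to 28956 after sham surgery. All 8 neuronal markers were lower too (746 to 1455 against 4900 to 8052), and so were 3 of 8 astrocyte markers (14197 to 17830 against 23092 to 41334). Of the 8 astrocyte markers, 1 went the other way with a log2 fold change of 1.44, which did not pass. At 24 h, when the difference in Vegfa did not pass, 5 of 8 neuronal and 5 of 8 astrocyte markers were already lower after tMCAO and 0 of 6 choroid plexus markers were. Of 4 fibroblast markers, 0 were lower at 24 h and 2 (Dcn and Lum) at 7 days. Their sums at 7 days were 5331 to 5634 against 8045 to 13184. Of 10 pericyte and mural markers, 3 were lower at 24 h and 1 (Vtn) at 7 days, with sums of 89392 to 108595 against 142488 to 154095 at 7 days. The part of these cells in the values of Vegfa was not tested.

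**Figure D3:**
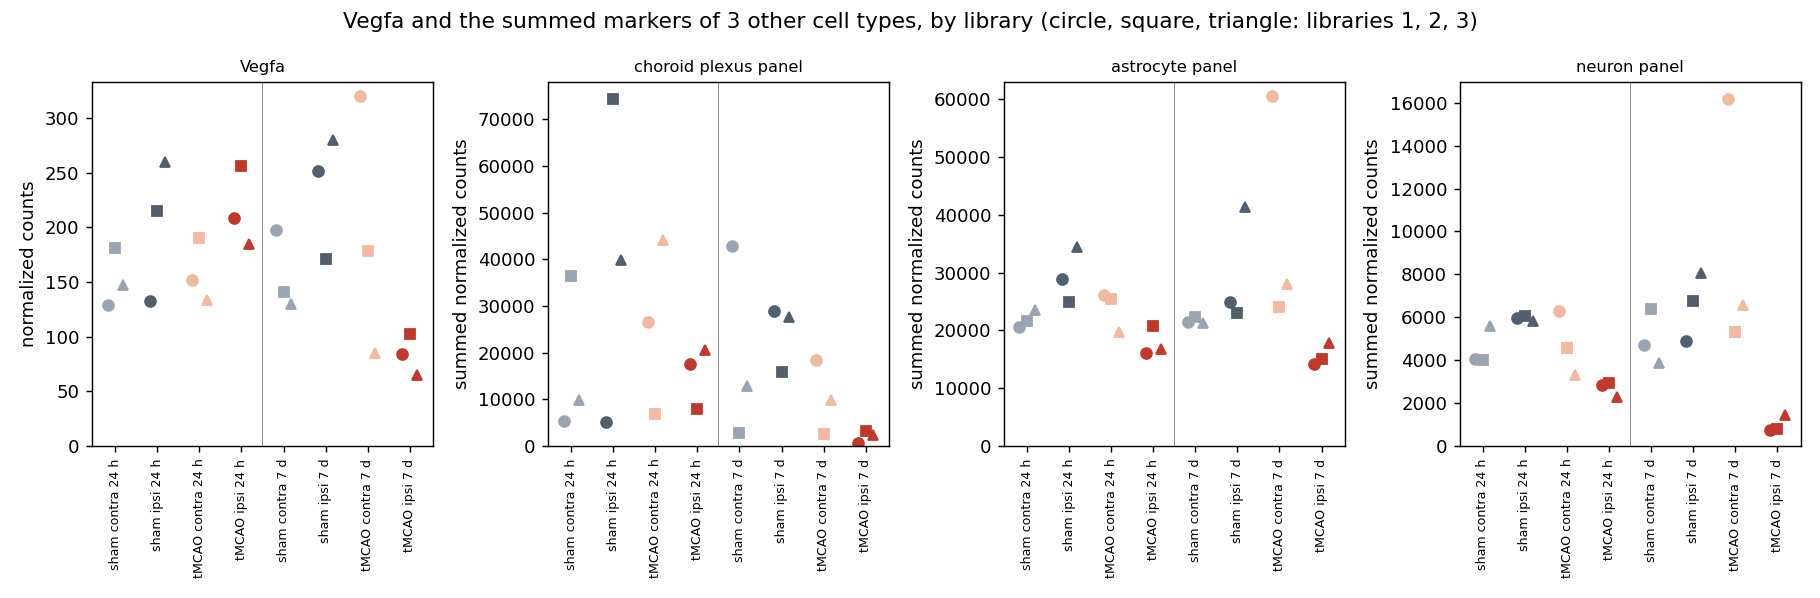
Normalized counts of Vegfa (left) and summed normalized counts of the choroid plexus, astrocyte and neuron markers (other panels) in each library of the 8 groups (contra, contralateral; ipsi, ipsilateral). The ipsilateral libraries 7 days after tMCAO are low in all 4 panels (65 to 102 normalized counts of Vegfa), and contralateral library 1 of the same animals is high for Vegfa (320), astrocytes (60648) and neurons (16179).

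Angpt2 (ENSMUSG00000031465, chromosome 8, 18690263 to 18741562, minus strand), the antagonist ligand of Tie2, had the largest spread of the 10 genes, and its differences were the largest of the 10 at 24 h and between 24 h and 7 days after tMCAO. At 24 h the ipsilateral libraries held 11478, 10959 and 4537 normalized counts after tMCAO and 2010, 1921 and 4025 after sham surgery. All 3 tMCAO libraries were above all sham libraries. The log2 fold change of 1.73 (SE 0.78, 95% interval 0.10 to 3.37, limma, adjusted p = 0.0991) was a 3.32-fold difference that did not pass with the spread shared by all 8 groups. It passed when only these 2 groups were fitted (adjusted p = 0.0150). The contralateral libraries at 24 h had 2152, 4895 and 1085 after tMCAO, so that the second of them overlapped with the ipsilateral range, and the log2 difference of 1.88 (SE 0.78, limma, adjusted p = 0.0861) did not pass. It did with only these 2 groups in the fit (adjusted p = 0.0491) and without contralateral library 2 (2.44, adjusted p = 0.0488), and was 1.35 (adjusted p = 0.294) without contralateral library 3. Each ipsilateral library exceeded its same-numbered partner, by 2.24 to 5.33-fold after tMCAO and by 1.5 to 2.57-fold after sham surgery. With the library number as a block, the difference after tMCAO passed (1.88, SE 0.26, limma, adjusted p = 0.000143).

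By 7 days Angpt2 was lower again. The ipsilateral tMCAO libraries had 3660, 822 and 1154 normalized counts, each below every ipsilateral tMCAO library at 24 h. This decrease was -2.45 on the log2 scale (SE 0.78, limma, adjusted p = 0.0333). It kept its sign but lost its call without ipsilateral library 1 or 2 of 24 h or library 2 or 3 of 7 days (-2.26 to -2.01, adjusted p = 0.0998 to 0.127). The sham libraries at 7 days also spread widely, with 2711, 819 and 4542, and the log2 fold change of tMCAO over sham was -0.51 (SE 0.78, limma, adjusted p = 0.726). The contralateral tMCAO libraries at 7 days held 7034, 900 and 756, the first being the library that stood apart. The log2 difference between these hemispheres was -0.15 (SE 0.78, limma, adjusted p = 0.937). The difference between the stroke effects at the 2 times, -2.24 (SE 1.11, limma, adjusted p = 0.205), did not pass.

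Angpt1 (ENSMUSG00000022309, chromosome 15, 42424727 to 42676977, minus strand), the agonist of Tie2, was not regulated in any of the 13 comparisons. In the tMCAO animals the ipsilateral library was below its same-numbered partner in all 3 pairs at 24 h (ratios 0.60 to 0.94) and at 7 days (0.54 to 0.88), and sham pairs went both ways. With the library number as a block, the log2 differences after tMCAO were -0.44 and -0.48 (limma, adjusted p = 0.0347 and 0.0313). Both were under the fold limit. At 24 h its ipsilateral values were 282, 172 and 476 normalized counts after tMCAO and 476, 453 and 430 after sham surgery. Of the tMCAO libraries, 2 were below all sham libraries and 1 was at the highest of them, and the log2 fold change was -0.67 (SE 0.38, limma, adjusted p = 0.184). It was -0.30 (adjusted p = 0.612) without tMCAO library 2 and -1.04 (adjusted p = 0.0507) without tMCAO library 3. With centring on the endothelial markers it was -1.11 (adjusted p = 0.0403) and passed. At 7 days the ipsilateral values were 162, 378 and 406 after tMCAO and 455, 391 and 244 after sham surgery, which overlapped (log2 fold change -0.27, SE 0.38). Angpt1 is made by mural cells, and 3 of 10 pericyte and mural markers (Vtn, Higd1b and Rgs5) were lower at 24 h, with sums of 71117 to 116906 normalized counts against 118909 to 144236. Their part was not tested.

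The ratio of Angpt2 to Angpt1 within a library, which does not depend on the size factor, brings both ligands together. In the ipsilateral hemisphere at 24 h it was 9.53 to 63.7 after tMCAO and 4.22 to 9.36 after sham surgery. These ranges did not overlap. The mean log2 ratio was 4.86 ± 1.43 (SD, n = 3) against 2.46 ± 0.66 (SD, n = 3), and the 2-sided exact permutation p was 0.1, the smallest that 3 against 3 libraries can give. At 7 days the log2 ratios were 2.37 ± 1.84 after tMCAO and 2.62 ± 1.57 after sham surgery (2-sided exact permutation p = 1.0, n = 3 each). Of 10 comparisons of this ratio and that of Flt1 to Kdr, none passed, and the smallest adjusted p over them was 0.25.

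Tek (ENSMUSG00000006386, chromosome 4, 94739289 to 94874976, plus strand), which encodes Tie2, had its lowest group mean in the ipsilateral hemisphere 24 h after tMCAO and was higher there at 7 days. Its ipsilateral tMCAO libraries held 7018, 8618 and 8784 normalized counts at 24 h and 11855, 13826 and 15259 at 7 days. There was no overlap, and the increase was 0.74 on the log2 scale (SE 0.20, limma, adjusted p = 0.0123). Without ipsilateral library 1 of 24 h it was 0.64 (adjusted p = 0.0704), and without library 3 of 7 days 0.66 (adjusted p = 0.0555). Sham ipsilateral libraries lay at 10722, 9195 and 8720 at 24 h and at 13450, 17246 and 9962 at 7 days, a log2 difference of 0.48 that did not pass (limma, adjusted p = 0.276). The stroke effects at both times differed by 0.27 (SE 0.28, limma, adjusted p = 0.576), so that a rise beyond that of the sham animals was not shown. Against the sham libraries, Tek differed by -0.23 at 24 h and 0.04 at 7 days on the log2 scale (SE 0.20 each), neither of which passed (limma, adjusted p = 0.388 and 0.925), although centring on the endothelial markers gave -0.67 at 24 h (adjusted p = 0.0238).

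Between hemispheres, Tek leaned to the contralateral side in sham animals as well. The ipsilateral library was lower than its same-numbered partner in all 3 sham pairs at 24 h (ratios 0.80 to 0.82), in all 3 sham pairs at 7 days (0.81 to 0.94) and in all 3 tMCAO pairs at 24 h (0.64 to 0.78). At 7 days after tMCAO it was higher in all 3 pairs (1.02 to 1.36). The contralateral tMCAO libraries at 24 h had 10913, 11048 and 12616 normalized counts, above all ipsilateral ones, with a log2 difference of -0.51 (SE 0.20, limma, adjusted p = 0.0667). This was called with centring on the median (-0.59, adjusted p = 0.0483) and on the endothelial markers (-0.78, adjusted p = 0.0165). With the library number as a block it was -0.51 (SE 0.09, limma, adjusted p = 0.000614), still under the fold limit.

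Tie1 (ENSMUSG00000033191, chromosome 4, 118471191 to 118490061, minus strand), an orphan receptor that pairs with Tie2, had its highest group mean in the ipsilateral hemisphere 7 days after tMCAO. The ipsilateral libraries held 13925, 13944 and 16208 normalized counts at that time, against 10933, 13044 and 10569 after sham surgery and 7927, 11345 and 11703 in the contralateral hemisphere. The ipsilateral tMCAO libraries were above both other groups. The log2 difference from sham was 0.35 (SE 0.14, limma, adjusted p = 0.0894) and became -0.04 with centring on the endothelial markers. That from the contralateral hemisphere was 0.53 (SE 0.14, adjusted p = 0.0107), and that from the ipsilateral tMCAO libraries at 24 h (9673, 11280 and 9597) was also 0.53 (SE 0.14, adjusted p = 0.0118). Both were below the fold limit. The first exceeded it without contralateral library 2 or 3 (0.61 and 0.63), but was 0.35 (adjusted p = 0.103) without contralateral library 1, the one that stood apart, and 0.45 (adjusted p = 0.0511) without ipsilateral library 3. The second exceeded it with centring on the median (0.63) or without ipsilateral library 2 of 24 h (0.60), and lost its adjusted p without library 1 of 24 h (0.49, 0.0545) or library 3 of 7 days (0.46, 0.0562). Tie1 also differed between the times in ipsilateral sham libraries, by 0.37 without overlap (limma, adjusted p = 0.228), and the stroke effects at both times differed by 0.16 (SE 0.20, limma, adjusted p = 0.639).

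Flt1 (ENSMUSG00000029648, chromosome 5, 147561604 to 147726011, minus strand), which encodes VEGFR1, had its lowest group mean in the ipsilateral hemisphere 24 h after tMCAO. Its libraries there held 46000, 54920 and 39495 normalized counts, against 72170, 57595 and 79109 after sham surgery, with no overlap. The log2 fold change was -0.57 (SE 0.20, limma, adjusted p = 0.0357), just inside the fold limit, so that it was not called. It was called with centring on the median (-0.64, adjusted p = 0.0295) or on the endothelial markers (-1.01, adjusted p = 6.97e-05), and without ipsilateral library 2 of the sham or of the tMCAO group (-0.70 in both). Without library 1 or 3 of the sham group it was -0.54 and -0.48 (adjusted p = 0.102 and 0.127), and without library 1 or 3 of the tMCAO group -0.57 and -0.46 (adjusted p = 0.0878 and 0.126). The contralateral tMCAO libraries had 60079, 87519 and 54464, the last of which was under the highest ipsilateral one, and the log2 difference was -0.51 (SE 0.20, limma, adjusted p = 0.0700). This one was called with both centrings (-0.59 and -0.79) and without contralateral library 3 (-0.64), but was -0.30 (adjusted p = 0.310) without contralateral library 2, which had the highest value. Each ipsilateral library was below its same-numbered partner (ratios 0.63 to 0.77). With the library number as a block the difference was -0.51 (SE 0.12, limma, adjusted p = 0.00647), still under the fold limit. Counts per gene do not separate the membrane receptor from its soluble form.

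At 7 days, ipsilateral Flt1 was at 55983, 47757 and 59391 normalized counts after tMCAO and at 57704, 60355 and 75385 after sham surgery, which overlapped (log2 fold change -0.24, SE 0.20, limma, adjusted p = 0.468, and -0.63 with adjusted p = 0.00295 when centred on the endothelial markers).

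Kdr (ENSMUSG00000062960, chromosome 5, 75932827 to 75978458, minus strand), the gene of VEGFR2, had overlapping values at 24 h. They were 8539, 9231 and 7568 normalized counts in the ipsilateral hemisphere after tMCAO and 9787, 8478 and 7753 after sham surgery (log2 fold change -0.04, SE 0.21, 95% interval -0.48 to 0.41). At 7 days the values were 6662, 6951 and 9225 against 10661, 11007 and 7620, and the log2 fold change of -0.36 (SE 0.21, limma, adjusted p = 0.289) did not pass, except with centring on the endothelial markers (-0.74, adjusted p = 0.0170). The contralateral hemisphere of the same animals was low as well, with 6392, 5999 and 9240 normalized counts against 13252, 11208 and 7577 after sham surgery, a log2 difference of -0.56 (SE 0.21) that did not pass (limma, adjusted p = 0.390).

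The ratio of Flt1 to Kdr, the trapping over the signalling VEGF receptor, was 5.22 to 5.95 in the ipsilateral hemisphere 24 h after tMCAO. It was 6.79 to 10.2 after sham surgery and 6.47 to 9.86 in the contralateral tMCAO libraries, both without overlap. The mean log2 ratio was 2.46 ± 0.10 (SD, n = 3) against 3.0 ± 0.31 and 2.92 ± 0.33 (SD, n = 3), and the 2-sided exact permutation p was 0.1 for each, the smallest possible. At 7 days the tMCAO libraries had ratios of 6.44 to 8.40, above those at 24 h (2-sided exact permutation p = 0.1, n = 3 each), and within the sham range of 5.41 to 9.89.

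Like Flt1 and Kdr, the other VEGF receptors were not regulated in any of the 13 comparisons. Flt4 (ENSMUSG00000020357, chromosome 11, 49609263 to 49652739, plus strand), the receptor of the lymphatic ligands VEGF-C and VEGF-D, ranged from 2492 to 5367 normalized counts over the 24 libraries. Its ipsilateral stroke effect was 0.22 at 24 h (SE 0.18, limma, adjusted p = 0.372) and 0.38 at 7 days (SE 0.18, limma, adjusted p = 0.178) on the log2 scale, with a change of sign to -0.22 and -0.01 when centred on the endothelial markers. Nrp1 (ENSMUSG00000025810, chromosome 8, 128359284 to 128503363, plus strand), the co-receptor that presents VEGF-A to VEGFR2, ranged from 1783 to 4267. Its effects were -0.38 at 24 h (SE 0.27, limma, adjusted p = 0.286) and -0.10 at 7 days (SE 0.27, limma, adjusted p = 0.844), and centring on the endothelial markers gave -0.82 at 24 h (adjusted p = 0.0391).

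**Figure D4:**
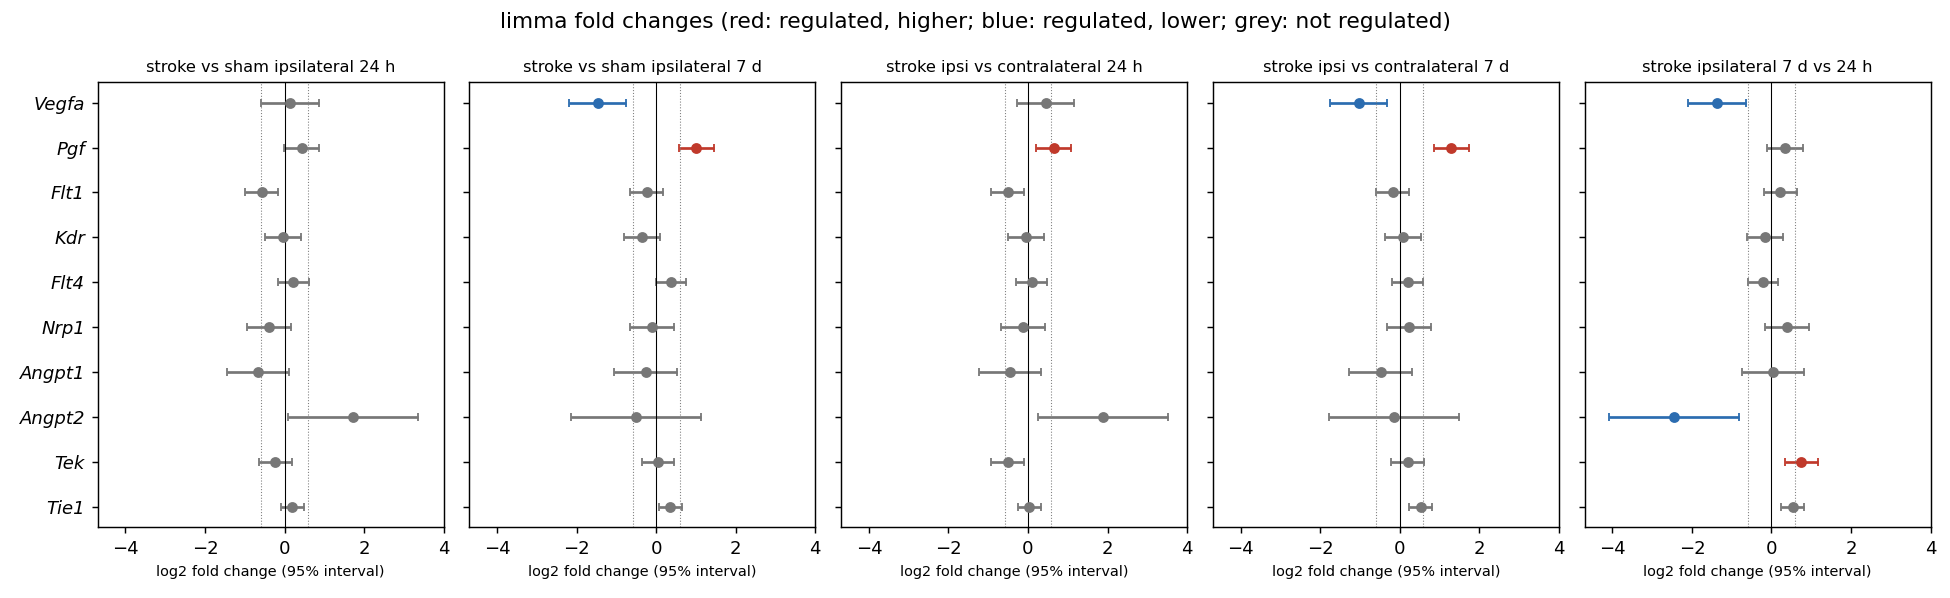
Log2 fold changes with 95% intervals (horizontal axes) of the 10 genes in 5 comparisons from limma, with dotted lines at the fold limit of 1.5 in either direction. Coloured points are regulated (red higher, blue lower). These are Pgf and Vegfa in 3 comparisons each, and Angpt2 and Tek between 24 h and 7 days, while the intervals of Angpt2 are the widest (0.10 to 3.37 at 24 h).

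Of the 10 genes, few passed the test. Between tMCAO and sham in the ipsilateral hemisphere, 0 of 10 were regulated at 24 h, when 18.3% of all tested genes were (10% higher and 8.23% lower), and 2 of the 10 had an unadjusted p under 0.05 in limma (Flt1 and Angpt2), against 42.1% of all genes. At 7 days 2 of 10 were regulated (Pgf higher, Vegfa lower), against 13.2% of all genes (3.27% higher and 9.95% lower). The median log2 fold change of the 10 genes was 0.05 at 24 h and -0.17 at 7 days, and that of all tested genes -0.024 and 0.025. The libraries of the 2 groups did not overlap for 2 of 10 genes at 24 h and 3 of 10 at 7 days, as was the case for 49% and 30% of all genes.

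Between ipsilateral and contralateral hemispheres after tMCAO, 1 of 10 was regulated at 24 h (Pgf, higher) against 13.6% of all genes (8.51% higher and 5.14% lower), and 2 of 10 were at 7 days (Pgf higher, Vegfa lower) against 13% (3.03% higher and 9.98% lower). The libraries of the hemispheres did not overlap for 2 of 10 genes at each time, as for 40.8% and 25.3% of all genes. From 24 h to 7 days in the ipsilateral tMCAO libraries, 3 of 10 were regulated (Tek higher, Vegfa and Angpt2 lower) against 12.2% (3.72% higher and 8.44% lower), and 4 of 10 did not overlap, against 34.2%. In the difference between the stroke effects 1 of 10 was regulated (Vegfa, lower) against 8.12% (2.43% higher and 5.68% lower). These comparisons share libraries with each other. In the 7 comparisons between sham and contralateral groups, 0 of 10 genes were regulated in limma. Between the hemispheres of sham animals this was against 0% of all genes at both times, and at an unadjusted p under 0.05 there were 0 of 10 against 2.3% at 24 h and 1 of 10 (Pgf) against 2.25% at 7 days. Between contralateral hemispheres after tMCAO and sham surgery it was against 0% at 24 h and 0.0313% at 7 days, with 0 of 10 against 2.53% and 1 of 10 (Kdr) against 10.3% at an unadjusted p under 0.05. From 24 h to 7 days it was against 0.476% in ipsilateral sham, 0.332% in contralateral sham and 0% in contralateral tMCAO libraries. There 2 of 10 (Tek and Tie1) against 14.1%, 1 of 10 (Pgf) against 10.8% and 0 of 10 against 16.5% had an unadjusted p under 0.05.

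Centring the libraries on the mean of the 10 endothelial markers moved the median of all genes by much, to -0.46 at 24 h and -0.36 at 7 days between tMCAO and sham. Endothelial sums were 146558 to 191474 normalized counts after tMCAO and 132412 to 147043 after sham surgery at 24 h, with 1 of 10 markers higher (Ecscr), and 171470 to 206929 against 149989 to 165166 at 7 days, with 3 of 10 higher (Ramp2, Egfl7 and Ecscr). At 24 h the log2 fold changes of the 10 markers ran from -0.35 to 2.0, with a median of 0.40. The highest was that of Ecscr, and centring without it was not run. Relative to the mean of all 10 markers, 4 of 10 genes were called lower at 24 h (Tek, Angpt1, Nrp1 and Flt1), when 35.9% of all genes were called and 32.4% were lower. At 7 days 3 were lower (Vegfa, Flt1 and Kdr) and Pgf was higher on that scale, when 22.1% of all genes were called and 20.9% were lower.

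The next lists extend the pathway on either side of the receptors. Their counts stand beside 10% of all tested genes higher and 8.23% lower at 24 h, and 3.27% higher and 9.95% lower at 7 days. The other ligands, co-receptors and the Tie2 phosphatase are 6 genes, of which 0 were higher and 2 lower at 24 h after tMCAO in the ipsilateral hemisphere (median -0.32). Ptprb, the phosphatase VE-PTP that restrains Tie2, had 23125, 24076 and 28713 normalized counts against 41683, 34650 and 37587 after sham surgery (log2 fold change -0.59, SE 0.17, limma, adjusted p = 0.0159). All tMCAO libraries were below the sham range, but the call was lost without sham library 1 (-0.52) or tMCAO library 1 or 2 (-0.53 and -0.56), with adjusted p of 0.0549 to 0.0713. At 7 days Ptprb was at 39330 to 45401, within reach of the sham range of 28969 to 40389 (log2 fold change 0.20, adjusted p = 0.503). Angpt4, a further Tie2 ligand, had 14, 17 and 38 normalized counts against 72, 58 and 52 (log2 fold change -1.48, SE 0.37, limma, adjusted p = 0.00576). Vegfd, a ligand of VEGFR3, was the 1 gene of this list that was higher at 7 days, with 44, 52 and 66 against 27, 33 and 23 (log2 fold change 0.94, SE 0.32, limma, adjusted p = 0.0499). That call was lost without any 1 of the 6 libraries (0.78 to 1.07, adjusted p = 0.0588 to 0.164).

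Of the 23 signal transducers of the VEGF receptors, 22 were tested. At 24 h 2 were higher and 1 lower (median 0.13), and at 7 days 1 was higher and 2 lower (median 0.02). Plcg1, the phospholipase that VEGFR2 recruits, had 2823, 3073 and 3198 normalized counts at 24 h against 4409, 3801 and 4219 after sham surgery (log2 fold change -0.45, adjusted p = 0.0112), which was under the fold limit. At 7 days it had 5064, 5143 and 6544 against 3264, 4224 and 3618 (log2 fold change 0.59, SE 0.13, limma, adjusted p = 0.00237), with no overlap at either time. Without sham library 1 or 3 or tMCAO library 3 of 7 days, that value was 0.50, 0.58 and 0.47 and under the fold limit. Prkcb, a protein kinase C downstream of it, was lower at both times, with 288, 281 and 338 against 801, 649 and 658 at 24 h (log2 fold change -1.21) and 321, 270 and 361 against 563, 690 and 970 at 7 days (-1.19). Prkca was lower at 7 days (-0.87, adjusted p = 0.00307). Hspb1, the actin-regulating heat shock protein HSP27, was higher at 24 h with 5010, 4544 and 3321 against 2580, 2506 and 3184 (log2 fold change 0.63, adjusted p = 0.0178), as was the kinase gene Map2k2 (0.60, adjusted p = 0.000667). Hspb1 lost its call without sham library 1 or 2 or tMCAO library 1 or 2 (0.50 to 0.58, adjusted p = 0.0638 to 0.0911) and Map2k2 fell under the fold limit without library 1 of either group (0.54 and 0.56). Prkcb is also a neuronal gene, and the neuronal markers were lower at both times, whose part in its values was not tested.

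Of 7 transducers of Tie2, Dok2, an adaptor that is also found in leukocytes, was the 1 regulated gene at 24 h (92, 74 and 104 against 26, 42 and 41 normalized counts, log2 fold change 1.30, SE 0.24, limma, adjusted p = 0.000604), with a median of -0.04 over the list. At 7 days 0 of 7 were regulated, and the median was 0.03. At 24 h all 7 neutrophil and monocyte markers were higher, with sums of 3270 to 6409 against 340 to 1281 normalized counts, and their part in Dok2 was not tested.

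Of 12 genes that VEGF is known to induce in endothelial cells, 1 was higher and 1 lower at 24 h (median 0.26) and 0 were higher and 3 lower at 7 days (median -0.32). Apln, the ligand apelin of sprouting endothelial cells, had 6818, 3074 and 1958 normalized counts 24 h after tMCAO against 188, 170 and 157 after sham surgery. This 20-fold rise (log2 fold change 4.32, SE 0.42, limma, adjusted p = 8.86e-07) did not recur at 7 days, when Apln had 296, 188 and 246 against 204, 126 and 325 (log2 fold change 0.24, adjusted p = 0.767). Nr4a2, an immediate early transcription factor, was lower at 24 h (-0.85, adjusted p = 0.0305), a call lost without sham library 1, 2 or 3 or tMCAO library 1 or 2 (-0.89 to -0.70, adjusted p = 0.0534 to 0.124). At 7 days Dll4, the Notch ligand of tip cells, had 2783, 2607 and 2381 normalized counts against 3613, 3707 and 4875 (log2 fold change -0.64, SE 0.19, limma, adjusted p = 0.0246), which was lost without sham library 3 (-0.50, adjusted p = 0.116) or tMCAO library 2 or 3 (-0.65 and -0.58, adjusted p = 0.0517 and 0.0827). The contralateral tMCAO libraries were low as well (3030, 2452 and 1806, log2 difference between the hemispheres 0.12, adjusted p = 0.765). F3, which encodes tissue factor, was at 131, 116 and 123 against 465, 253 and 698 (-1.81, adjusted p = 0.00103), and Egr3 was lower as well (-1.87, adjusted p = 0.00699). F3 is abundant in astrocytes and Egr3 in neurons, whose markers were lower at that time, and their part was not tested.

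Of 8 oxygen-sensing genes, 0 were regulated at 24 h (2 at an unadjusted p under 0.05 in limma, against 42.1% of all tested genes, median -0.10) and 2 were higher at 7 days (median 0.11). Hif3a, a hypoxia-inducible factor that can restrain the others, had 761, 536 and 647 normalized counts against 145, 149 and 209 after sham surgery at 7 days (log2 fold change 1.95, SE 0.33, limma, adjusted p = 0.000289). At 24 h it had 309, 240 and 475 against 555, 343 and 740, which overlapped. The sham libraries themselves were lower at 7 days than at 24 h, by -1.65 in the ipsilateral and -1.61 in the contralateral hemisphere (limma, adjusted p = 0.0212 and 0.0302), whereas the ipsilateral tMCAO libraries were higher by 0.97 (adjusted p = 0.0433). The contralateral tMCAO libraries at 7 days had 520, 559 and 533, which overlapped with the ipsilateral ones (log2 difference 0.26, adjusted p = 0.701) and were above the contralateral sham libraries by 1.63 (adjusted p = 0.0916). Egln2, a prolyl hydroxylase of these factors, had 1617, 1636 and 2137 against 1121, 1230 and 1191 at 7 days (log2 fold change 0.59, SE 0.10, limma, adjusted p = 0.000430), and fell under the fold limit without sham library 1 (0.56) or tMCAO library 3 (0.46).

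Relative to the endothelial markers, the median of each of the 5 lists was below 0 at both times, from -0.76 to -0.12. On that scale the other ligands held 3 lower genes at 24 h and 2 at 7 days, the VEGF receptor transducers 7 and 4, the Tie2 transducers 3 and 0, the VEGF-inducible genes 1 and 6, and the oxygen-sensing genes 4 and 0, at times when 32.4% and 20.9% of all genes were called lower. Dok2 and Apln at 24 h and Hif3a at 7 days remained higher there, whereas Hspb1 and Map2k2 (0.18 and 0.16 at 24 h) and Plcg1, Vegfd and Egln2 (0.20, 0.55 and 0.20 at 7 days) were no longer called. With centring on the median, Hspb1 and Map2k2 came under the fold limit (0.56 and 0.54).

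**Figure D5:**
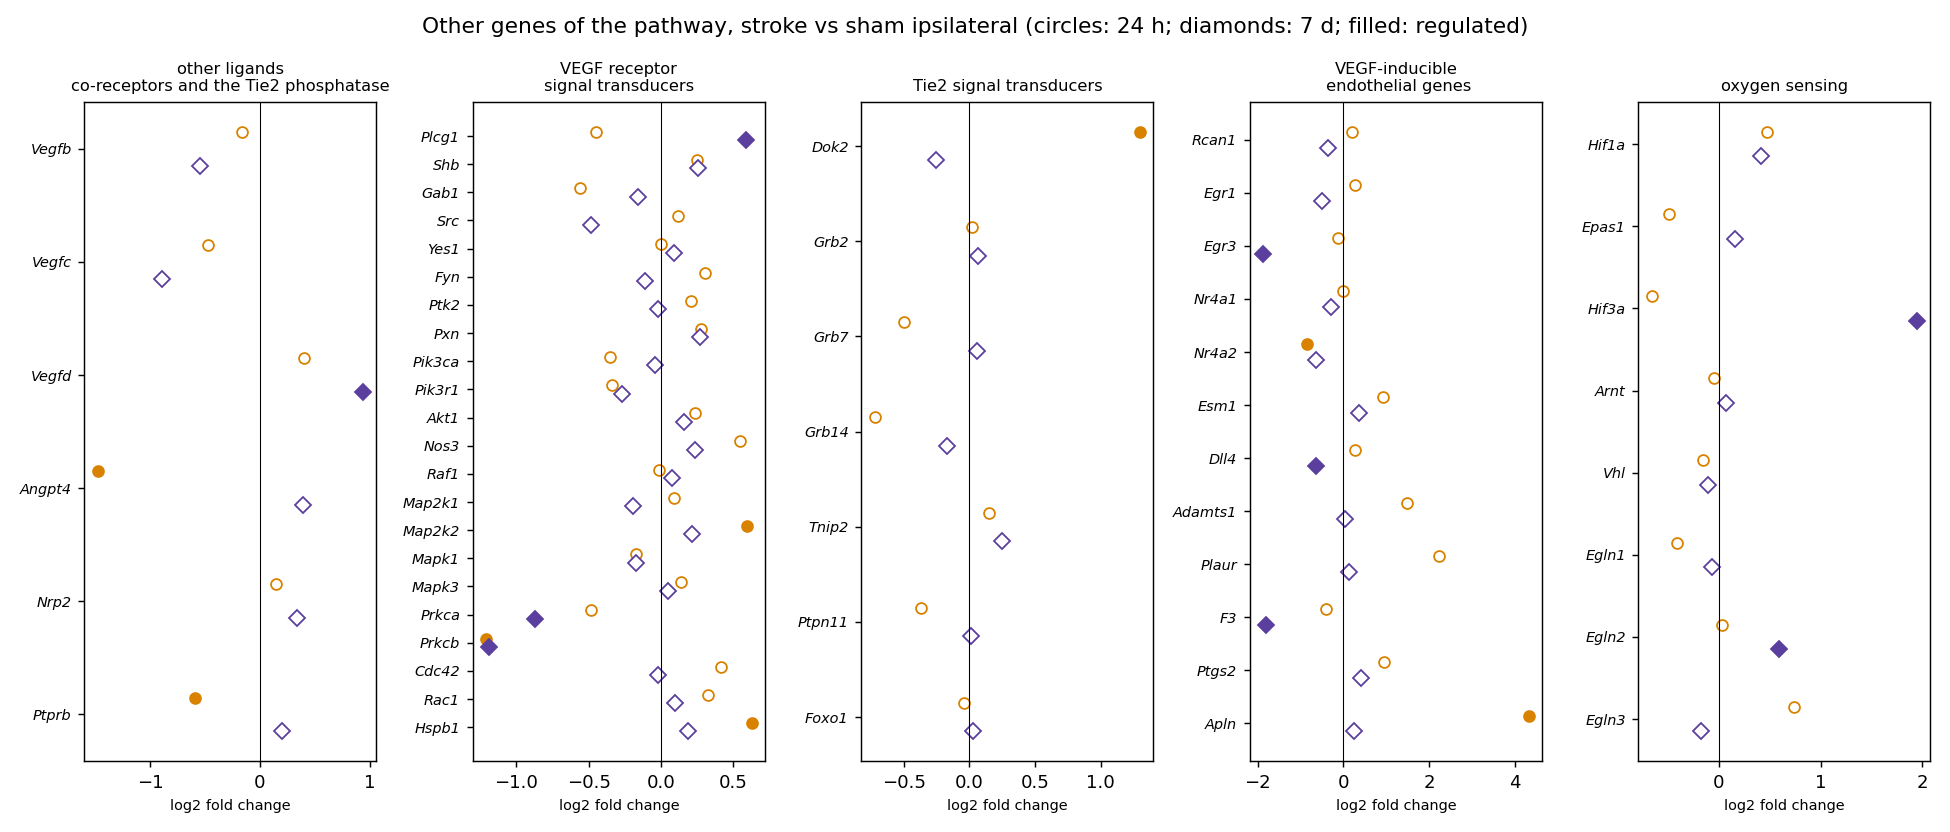
Log2 fold changes of tMCAO over sham in the ipsilateral hemisphere (horizontal axes, each list with its own scale) for the other genes of the pathway, with circles for 24 h, diamonds for 7 days and filled symbols for regulated genes. Apln at 24 h (4.32) stands farthest from 0, and few symbols are filled in any list.

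For the 3 genes whose group means spanned more than 1 on the log2 scale, the genes with the smallest distance in their centred log2 values over the 24 libraries were listed. For Angpt2 these were Rab20, Stc1 and Adm, with root mean square distances of 0.485, 0.493 and 0.513, against 1.17 for Angpt2 about its own mean. For Vegfa they were Egfr, Gls2 and Hsph1 (0.311, 0.312 and 0.345, against 0.566). For Pgf, Lgmn and Nectin2 were among them (0.250 and 0.274, against 0.507). All points of such a distance share their libraries, and the distances are descriptions. Stc1, which encodes the hormone stanniocalcin 1, had 566 to 1438 normalized counts in the ipsilateral hemisphere 24 h after tMCAO and 133 to 595 after sham surgery. Lgmn, a lysosomal protease, had 3320 to 5103 in the ipsilateral hemisphere 7 days after tMCAO and 1566 to 2499 after sham surgery. At 24 h Lgmn had 4100 to 4214 against 1741 to 2861, without overlap, whereas the values of Pgf overlapped at that time.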

How the data were processed

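RNA from 24 libraries of brain microvessels was measured by mRNA sequencing. After adapter removal by the authors, reads were mapped to mm10, and those matching several genes were left out. The submitters' processing notes name STAR 2.5.2b, featureCounts 1.5.1 and DESeq2 1.6.2 as the tools of the authors. The deposited values are a score: reads of a gene divided by a size factor per library, rounded to whole numbers by the authors. Reads were estimated from size factors (0.805 to 1.24) recovered from the gaps between low values.

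With limma 3.58.1 in R 4.3.3, log2 values after adding 1 were fitted for genes with a mean above 5, with all 8 groups and a mean-variance trend. On simulated data for the comparison of tMCAO with sham at 24 h, the fit called 79% of 100 genes with a true log2 change of 1, 96% of 100 with one of 2, and 9 of 15513 with none. In each of 13 comparisons, Benjamini-Hochberg adjustment covered all 15982 tested genes. Ratios were tested with exact permutation tests. Python 3.11.15 was used for tables and figures. Positions are those of the deposited table, and exon lengths are from GENCODE.

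The members, pathway lists and marker lists were chosen with earlier results of these data known. Named genes are the 10 members, the regulated list genes with the largest changes and those behind counts of 5 or fewer, and for members spanning more than 1 the 3 nearest genes, of which 1, like the microglial markers, is not reported here. Of the listed genes, Ccnb1 and Sh2d2a had means under the filter. Replicates are pools of animals, and the sources do not state whether the same number marks the same mice in both hemispheres. Residuals of same-numbered sham libraries were correlated between hemispheres in all pairs (0.145 to 0.467). Alternatives were another pseudocount, other filters, 2 centrings, blocks, fewer groups, no fold limit and each library left out. The authors' own comparisons were not used here.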

Additional observations from a re-analysis of the deposited data

Results flagged for a closer look

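The stroke effect in the ipsilateral hemisphere differed between 7 days and 24 h for 1 of the 10 genes and for 7 genes of the pathway lists, by limma's test of the difference itself with Benjamini-Hochberg adjustment over all tested genes. The 7 were 2 of 6 other ligands, co-receptors and the phosphatase, 1 of 22 VEGF receptor transducers and 1 of 7 Tie2 transducers. The rest were 2 of 12 VEGF-inducible and 1 of 8 oxygen-sensing genes. Of all tested genes, 8.12% were called in this comparison. Vegfa differed by -1.60 on the log2 scale (SE 0.49, adjusted p = 0.0412). The effect was higher at 7 days for Hif3a by 2.61 (SE 0.46, adjusted p = 0.0015), for Plcg1 by 1.04 (SE 0.18, adjusted p = 0.00113), for Ptprb by 0.78 (SE 0.25, adjusted p = 0.0479) and for Angpt4 by 1.87 (SE 0.53, adjusted p = 0.0282). It was lower at 7 days for Apln (-4.09, SE 0.60, adjusted p = 0.000304), for Dok2 (-1.55, SE 0.35, adjusted p = 0.00757) and for Dll4 (-0.90, SE 0.27, adjusted p = 0.0386). Leaving out 1 library ended several of these calls. For Vegfa this held for libraries 1 and 2 of both 24 h groups and libraries 1 and 3 of both 7 day groups (-1.67 to -1.33, adjusted p = 0.0536 to 0.124). For Ptprb it held for 10 of 12 libraries, all but tMCAO library 3 of 24 h and sham library 2 of 7 days (0.63 to 0.85, adjusted p = 0.0518 to 0.126). For Angpt4 it held for sham library 1 and tMCAO libraries 1 and 2 of 24 h and libraries 2 and 3 of both 7 day groups (1.60 to 1.86, adjusted p = 0.0513 to 0.0858). For Dll4 it held for libraries 1 and 2 of both 24 h groups, sham library 3 of 7 days and tMCAO libraries 2 and 3 of 7 days (-0.91 to -0.76, adjusted p = 0.0622 to 0.113). The calls of Hif3a, Plcg1, Dok2 and Apln held without each of the 12 libraries. In Hif3a, ipsilateral sham libraries fell by 1.65 from 24 h to 7 days and tMCAO libraries were higher by 0.97 at 7 days. Centring on the endothelial markers ended the calls of Vegfa (adjusted p = 0.0615), Ptprb (0.0963) and Angpt4 (0.0538), and centring on the median that of Dll4 (0.0575). For Plcg1 the sign itself turned, with all 3 tMCAO libraries below the sham range at 24 h and all 3 above it at 7 days.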

How the results depend on the processing

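Of 1750 refits of the fold changes of the 10 genes, 1587 kept sign and call, 27 lost a call, 22 gained one, 108 changed sign within 1 standard error of 0 and 6 beyond it. Of 188 refits of the counts of regulated genes, 159 stayed within 1.5 times. For tMCAO against sham at 24 h (0 of 10), the count was 1 with median centring, 4 with endothelial centring, 1 with only the compared groups and 1 with no fold limit, when 3037, 5737, 3100 and 4885 of all genes were called (2919 in the reported fit), and 0 to 1 without 1 library. At 7 days (2 of 10, 2114 of all) it was 4 with endothelial centring (3530 of all). For the difference between the times (1, 1297 of all) it was 0 with endothelial centring (921 of all) and 0 to 1 without 1 library. For the hemispheres after tMCAO at 24 h (1) it was 2 with median centring, 2 with endothelial centring and 2 with only the compared groups (2336, 3278 and 2059 of all genes, against 2181), and 0 to 1 without 1 library. At 7 days (2, 2080 of all) it was 1 with only the compared groups (1233 of all) and 1 to 3 without 1 library, and from 24 h to 7 days (3) 1 to 3.

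Endothelial centring turned the sign of Pgf at 24 h (-0.01), Flt4 at 24 h (-0.22) and 7 days (-0.01), Tie1 at 24 h (-0.25) and 7 days (-0.04) and Flt4 between hemispheres at 7 days (-0.17), by construction, as it subtracts the rise of the endothelial markers. Without 1 library, the log2 ratio of Angpt2 to Angpt1 ranged from -1.30 to 0.55 for tMCAO against sham at 7 days and from -0.73 to 1.58 between hemispheres at 7 days, and that of Flt1 to Kdr from -0.03 to 0.40 at 7 days.

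With the library number as a replicate block between hemispheres, 2 of 10 genes (2726 of all) were regulated after tMCAO at 24 h, Pgf and Angpt2 (1.88, SE 0.26, adjusted p = 0.000143), and the calls of the other comparisons of the 10 genes did not change in number. After tMCAO, Tek, Flt1 and Angpt1 at 24 h and Angpt1, Nrp1 and Tie1 at 7 days then had adjusted p of 0.000614 to 0.0457 in limma. All of these were under the fold limit. After tMCAO the residual correlations of same-numbered hemispheres were 0.066 to 0.360 at 24 h and 0.059 to 0.309 at 7 days, and all 6 libraries of each comparison correlated best with their own number. Across surgeries and times, the number marked no pairing (-0.252 to 0.411), and the block left 0, 2, 1 and 3 genes regulated at 24 h, at 7 days, in their difference and from 24 h to 7 days. Of the pathway genes, Vegfd at 7 days (adjusted p = 0.0530) and the differences between the times of Ptprb (0.0546) and Dll4 (0.0504) lost their calls with that block. With 3 pooled libraries a group, effects as variable as those of Angpt2 (SE 0.78) are measured with little precision.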
